A study of Homo sapiens with 4 samples.

Results

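The 249 protein-coding genes of human chromosome 19 whose symbols start with ZNF were taken from GENCODE release 44 on GRCh38, out of 1476 protein-coding genes on the chromosome and 20046 in the genome, and were described by the RNAPII-linked DNA loops at their promoters. A loop was counted for a gene when at least 1 anchor lay within 1 kb of a transcription start site of any of its annotated transcripts. In either list of loops, 103 of the 249 genes had such a loop and 146 had none.

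The loops came from POLR2A HiChIP-seq in HepG2, an established line of human hepatocellular carcinoma cells. HiChIP-seq ligates DNA ends that lie near each other in fixed nuclei and then immunoprecipitates a chosen protein, here the largest subunit of RNAPII, so that each paired-end tag (PET) records 1 contact. Mock-treated cells received sterilized water and PDS-treated cells received 20 µM pyridostatin (PDS), a ligand of G-quadruplex (G4) DNA, for 24 h, and no genetic change was made in either group. There were 2 replicates in each condition and 4 samples in all, but the deposited data are 1 combined list per condition, so no spread between replicates could be computed and no test between conditions was made. A loop needed at least 3 PETs to be listed, which means that a loop missing from a list could have up to 2. The depth of the libraries is unknown, and a smaller number of listed loops and a shallower library cannot be told apart. The intervals given are 95% intervals, cover counting error only, and treat genes, loops and PETs as independent. However, neighbouring genes share anchors, and PETs were listed only in loops of at least 3, so intervals of PETs are too narrow.

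Most ZNF genes of chromosome 19 encode Krüppel-associated box (KRAB) zinc finger proteins, which bind DNA through tandem C2H2 zinc fingers and recruit the corepressor TRIM28 to silence transposable elements. They lie in clusters of closely related genes that arose by tandem duplication, and in many cell types the zinc finger exons carry heterochromatin while the promoters are active. G4 structures are four-stranded folds of DNA with closely spaced runs of G, and a predicted G4 motif here means 4 stretches of 3 or more G on either strand, 1 to 7 bases apart.

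Promoters of the ZNF genes were looped less often than other promoters of the chromosome. In mock-treated cells, 96 of 249 ZNF genes (38.6%, interval 32.7 to 44.7) had a loop, against 784 of 1227 other chromosome 19 genes (63.9%, interval 61.2 to 66.5) and 59.8% of all protein-coding genes. In PDS-treated cells, 26 ZNF genes (10.4%, interval 7.23 to 14.9) had a loop, against 21.2% of the other chromosome 19 genes (interval 19 to 23.6) and 28.7% of all genes. The 267 ZNF genes on other chromosomes were looped in 49.4% (interval 43.5 to 55.4) and 25.5% of cases, with an interval of 20.6 to 31.02 in PDS-treated cells. The intervals of the ZNF genes on chromosome 19 and elsewhere overlapped in mock-treated cells and were apart in PDS-treated cells.

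**Figure D1:**
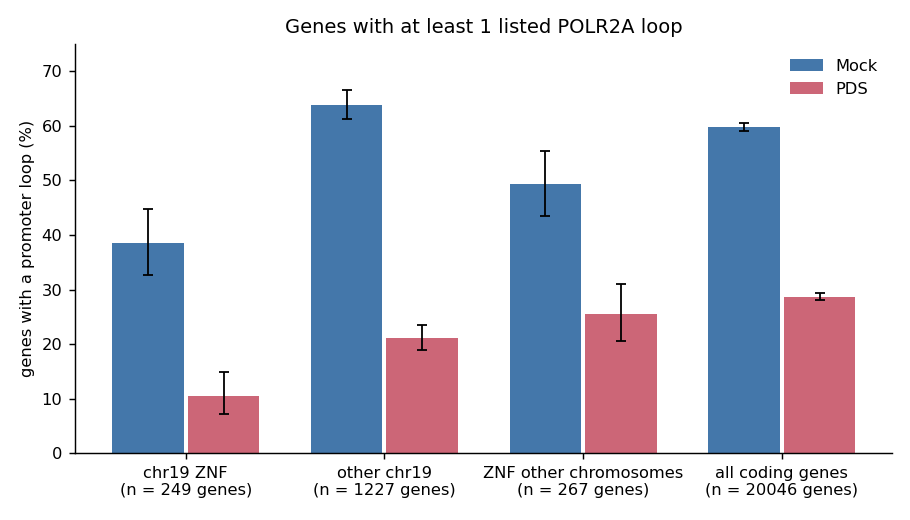
Percentage of genes with at least 1 listed loop at a promoter, for mock-treated (blue) and PDS-treated (red) cells; bars give the share of the genes in each set, and error bars are 95% Wilson intervals that cover counting error only. The chromosome 19 ZNF genes, at 38.6% and 10.4%, have the lowest bars in both conditions.

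Looped ZNF genes also carried fewer loops each. Of the 96 genes with a loop in mock-treated cells, 71 (74.0%, interval 64.4 to 81.7) had exactly 1 loop, 17 had 2 and 8 had 3, which was the most for any of them. Among the other looped genes of the chromosome, 40.8% had 1 loop (interval 37.4 to 44.3), the mean was 2.31 loops against 1.34 for ZNF genes, and the highest was 15. PETs per loop were close in both sets. A mean of 3.75 PETs per loop was found at ZNF promoters and 3.72 at the others, with 57.8% and 59.4% of loops at the minimum of 3 PETs. The midpoints of a loop's anchors were a median of 15960 bp apart at ZNF promoters (interval 12980.5 to 21995.5) and 16401.5 bp at the others (interval 15206.5 to 18243), and 16 of the 109 ZNF loops spanned more than 100 kb.

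Base composition and repeated sequence differed between the sets, and the part of these and of the number of start sites in the lower share was not tested beyond the following strata. ZNF genes had a median GC content of 52.1% within 1 kb of the start of the gene record, against 58.2% for the other chromosome 19 genes. Among genes of 45 to 55% GC, 31.2% of ZNF genes and 55.4% of the others had a mock loop, and among genes of at least 55% GC the shares were 55% and 69.3%, so the share was lower for ZNF genes in both ranges. Below 45% GC it was 4 of 15 ZNF genes (26.7%, interval 10.9 to 51.95) and 22.2% of the others, which could not be told apart. For genes with 1 to 3 start sites the shares were 38.2% (interval 27.6 to 50.1) and 47.0%, so the ZNF interval holds the share of the others. With 4 to 6 start sites the shares were 41.7% and 65.4%, and with 7 or more they were 35.3% and 77.8%. The share thus rose with the number of start sites among the other genes, while the ZNF intervals overlapped at all 3 steps. Within 1 kb of the start of the gene record, 205 of the 249 ZNF genes had no 100-base sequence that occurs elsewhere in the genome. Of these genes 36.1% had a mock loop, against 66.9% of the other genes of the same kind. This window leaves out the other start sites, at which loops were also counted, the gene bodies and most partner anchors. The part of reads from near-identical copies there was not tested.

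The share of looped genes varied between the clusters. Runs of at least 5 ZNF genes with neighbouring starts at most 250 kb apart gave 12 clusters with 233 of the 249 genes. In the cluster from ZNF653 to ZNF791 (11.48 to 12.64 Mb), 18 of 26 genes had a mock loop (69.2%, interval 50.01 to 83.5). In the cluster from ZNF737 to ZNF254 (20.54 to 24.13 Mb), which holds ZNF91, a repressor of SVA retrotransposons, 3 of 29 genes did (10.3%, interval 3.58 to 26.4). These intervals did not overlap, but the clusters were set side by side for a high share and the lowest share of the 12. Their genes had a median GC content of 55.6% and 48.6%, and the part of this in the difference was not tested. The largest clusters, from ZNF264 to ZNF446 with 43 genes and from ZNF175 to ZNF331 with 40, had shares between these, at 44.2% and 45%, and all 5 genes of the small cluster from ZNF554 to ZNF77 had a loop. In PDS-treated cells 7 of the 40 genes from ZNF175 to ZNF331 had a loop (17.5%), which was the highest number of any cluster, and 2 of the 43 from ZNF264 to ZNF446 did. By share, the small clusters from ZNF628 to ZNF581 (3 of 7, 42.9%, interval 15.8 to 74.95) and from ZNF554 to ZNF77 (1 of 5, 20%, interval 3.62 to 62.45) were higher.

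**Figure D2:**
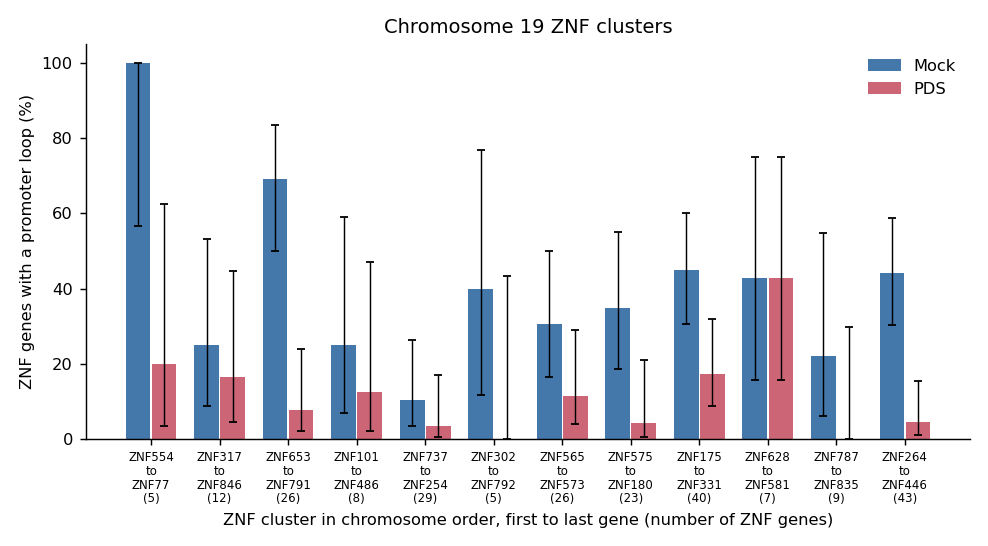
Percentage of ZNF genes with a promoter loop in each of the 12 clusters, in chromosome order and named by first and last gene, with the number of ZNF genes in parentheses; blue bars are mock-treated cells, red bars PDS-treated cells, and error bars 95% Wilson intervals. The third cluster from the left reaches 69.2% and the fifth 10.3% in mock-treated cells.

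Other genes inside the spans of the clusters were looped at a similar share, but the sets have loops in common. Of 89 such protein-coding genes whose symbols do not start with ZNF, 34 (38.2%, interval 28.8 to 48.6) had a mock loop and 10.1% a PDS loop. The shares were 39.1% and 9.87% for the 233 clustered ZNF genes. The 89 include other zinc finger genes, such as ZIK1 and ZSCAN4, and records without a gene symbol. Some share an anchor with a ZNF gene, as ZIK1 does with ZNF416, so the same loop can count in both sets. The part of such loops in the similar share was not tested. Outside the spans, 750 of 1138 other genes (65.9%, interval 63.1 to 68.6) had a mock loop and 22.1% a PDS loop. Only 16 ZNF genes lay outside clusters, and 5 of them (31.2%, interval 14.2 to 55.6) had a mock loop, an interval wide enough to hold the value of the clustered genes.

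Few loops at ZNF promoters were listed after PDS treatment. The mock list had 109 loops with 409 PETs at ZNF promoters and the PDS list 23 loops with 81 PETs, a PDS/mock ratio of 0.211 for loops (interval 0.135 to 0.330) and 0.198 for PETs (interval 0.156 to 0.251). At the promoters of other chromosome 19 genes the ratios were 0.176 (interval 0.152 to 0.205) and 0.154 (interval 0.142 to 0.167), and at all promoters 0.254 and 0.228. With PETs divided by the total of each list, the ratio was 0.753 at ZNF promoters (interval 0.593 to 0.955) and 0.586 at the others (interval 0.540 to 0.636). ZNF loops made up 6.63% of the mock loops of the chromosome and 6.91% of its PDS loops. The intervals of ZNF and other promoters overlapped for loops and for PETs. The PET intervals were apart, with the ratio higher at ZNF promoters, in 2 settings. They were loops of at least 4 PETs (0.150, interval 0.104 to 0.216, against 0.0763, interval 0.0653 to 0.0892) and loops that touch promoters of ZNF genes alone (0.220, interval 0.168 to 0.287, against 0.154, interval 0.142 to 0.168). PETs of 1 loop are not independent, and in the first setting 33 PDS PETs came from 7 loops. Counted by loop, the intervals overlapped in both settings (0.152, interval 0.0701 to 0.330, against 0.0842, interval 0.0608 to 0.117, and 0.228, interval 0.137 to 0.378, against 0.176, interval 0.152 to 0.205). The ZNF genes of other chromosomes had a loop ratio of 0.259 (interval 0.210 to 0.320).

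Of the 103 ZNF genes with a loop in either list, 77 (74.8%) had loops in the mock list only, 7 (6.80%) in the PDS list only and 19 in both. Among other chromosome 19 genes 68.1% had loops in the mock list only and 3.80% in the PDS list only, and among all protein-coding genes 54.0% and 4.17%. A PDS loop was present at 19 of the 96 ZNF genes with a mock loop (19.8%, interval 13.1 to 28.9), against 29.2% of such other genes of the chromosome (interval 26.1 to 32.5) and 43.6% of all genes. These ZNF genes had fewer mock loops each than the others of the chromosome, with a mean of 1.34 against 2.31. The part of this in the lower share was not tested. Counted by loop, 9 of 109 mock loops (8.26%, interval 4.40 to 14.95) were in the PDS list with the same anchors, against 6.40% of the mock loops at other chromosome 19 promoters and 11.0% at all promoters. Of mock loops with 3 PETs, 2 of 63 were found again, and of those with at least 5 PETs, 3 of 18. The other 15 loops of at least 5 PETs were not in the PDS list.

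**Figure D3:**
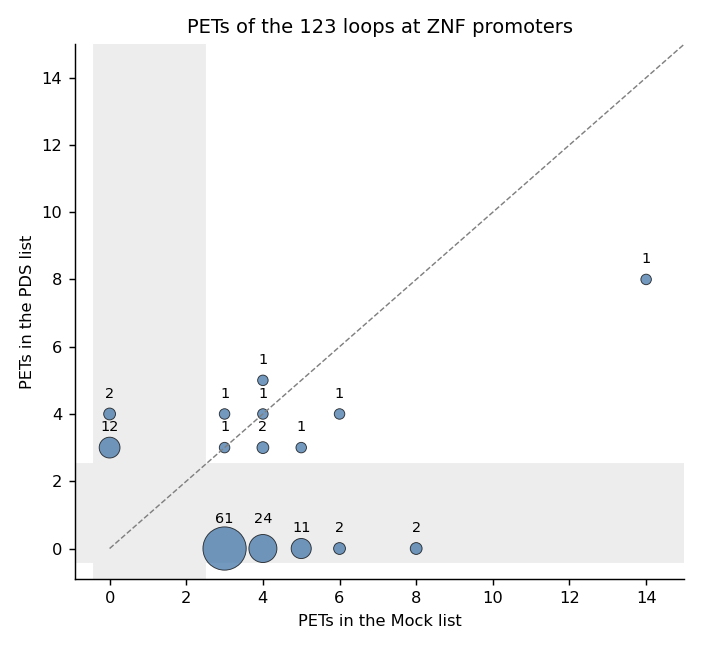
PETs in the mock list (horizontal) and the PDS list (vertical) of the 123 loops at ZNF promoters; the number beside each point is the number of loops there, larger points hold more loops, grey bands mark counts under the listing minimum of 3, drawn at 0 for loops not listed, and the dashed line marks equal counts. Of the 123 loops, 100 lie on the lower band, 14 on the left band and 9 in between.

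The strongest ZNF loop in both lists joined a start site of ZNF28 to an anchor with start sites of ZNF28 and ZNF468. These genes have overlapping records on the minus strand in the cluster from ZNF175 to ZNF331 and encode KRAB zinc finger proteins. The anchors of the loop, chr19:52817323-52823453 and chr19:52853093-52858647, are 35.5 kb apart, and it had 14 PETs after mock treatment and 8 after PDS, a ratio of 0.571 (interval 0.246 to 1.33). The gene record of ZNF28 starts beside ZNF468, so the second anchor counts for both genes. The first holds a start site of ZNF28 alone, so a contact between different genes cannot be told from a contact within ZNF28. The anchors are related in sequence: 7.03% of the 100-base sequences of the first occur in the second, and 7.77% of those of the second in the first, and the part of misplaced reads in this loop was not tested. Only 5 of the 123 ZNF loops had anchors that share any 100-base sequence. ZNF468 had a further loop of 4 PETs, 5.46 kb long and inside the gene, in the PDS list alone, and with 12 PETs in all it had more than any other member in PDS-treated cells.

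The remaining shared loops were weak, and the interval of the PDS/mock ratio included 1 for each of the 9. ZNF865 had a loop with 6 PETs in the mock list and 4 in the PDS list, to an anchor that overlaps the gene and its neighbour ZNF784. A loop between ZNF160 and ZNF415, named after its values were seen, had 5 and 3, and the one at ZNF253, which reaches 117 kb upstream, had 4 and 3. The loop that joins start sites of ZNF580 and ZNF581, whose anchors hold start sites of both genes, had 4 in both lists. Only ZNF121, with 4 and 5 PETs, and ZNF552, with 3 and 4, had a shared loop with more PETs after PDS treatment. Each also had another mock loop, of 4 PETs at ZNF121 and 5 at ZNF552, that was not in the PDS list. Over all loops ZNF121 thus had 8 PETs in the mock list and 5 in the PDS list, and ZNF552 had 8 and 4. In all, 5 shared loops had fewer PETs in PDS-treated cells, 2 the same and 2 more.

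Strong mock loops that were not listed after PDS treatment were found at several members. ZNF419, whose variants give rise to a minor histocompatibility antigen, had the most PETs of any ZNF gene in mock-treated cells, 15 in 3 loops of 6, 5 and 4 PETs. They reached the anchor with the promoter of the vomeronasal receptor gene VN1R1, the body of ZNF773 and the promoter of ZNF772, and none was in the PDS list. ZNF419 was also among the 4 ZNF genes with over 10% of repeated 100-base sequences near the start of the gene record (15.7%, as at ZNF773). ZNF296, which has no KRAB domain and takes part in reprogramming to pluripotency, had a loop of 8 PETs to the PPP1R37 promoter and another of 4 PETs over 324 kb, neither listed in PDS-treated cells. Its anchor also holds start sites of CLASRP, GEMIN7 and MARK4, so the contact cannot be assigned to ZNF296 alone. ZNF331, an imprinted gene, had a loop of 8 PETs to the sequence upstream of it in mock-treated cells, and none in PDS-treated cells.

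Further members had 9 to 12 PETs in mock-treated cells. ZNF432, a zinc finger protein linked to DNA repair, had 3 loops of 4 PETs each, and ZNF584 had 3 loops of 5, 3 and 3. ZNF441 had 11 PETs, of which 6 were in a loop to its divergent neighbour ZNF823 and 5 in a loop within ZNF441. ZNF100, ZNF556 and ZNF761 had 3 loops of 3 PETs each. None of these 6 genes had a PDS loop. ZNF765 also had 3 mock loops of 3 PETs, none of which was listed in PDS-treated cells, and a different loop of 4 PETs in the PDS list that reached into ZNF331, 108 kb away. ZNF799 had 9 PETs as well, in 2 loops, and no PDS loop, and was placed after the others tied at 9 because it had fewer loops. Of the 13 members with at least 9 PETs in mock-treated cells, 9 had no PDS loop, and of all 96 with a mock loop, 77 had none.

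Other mock loops of 5 PETs, named here after their values were seen, were likewise missing from the PDS list. ZNF625 was joined to its divergent neighbour ZNF136 over 14.9 kb. ZNF317 (11.0 kb) and ZNF442 (17.5 kb) looped to an anchor that overlaps the same gene, which at ZNF442 also extends past the end of the gene. ZNF543 looped to sequence outside coding genes 10.7 kb away. ZNF442 also had a loop of 3 PETs in the PDS list alone. The anchor of ZNF836 also holds a start site of PPP2R1A, which encodes a phosphatase scaffold subunit, and that of ZNF551 was joined to the promoter of ZSCAN4, another zinc finger gene, over 8.98 kb. The longest of these loops reached 309 kb, from ZNF799 to an anchor that overlaps the edge of another ZNF gene, ZNF20.

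**Figure D4:**
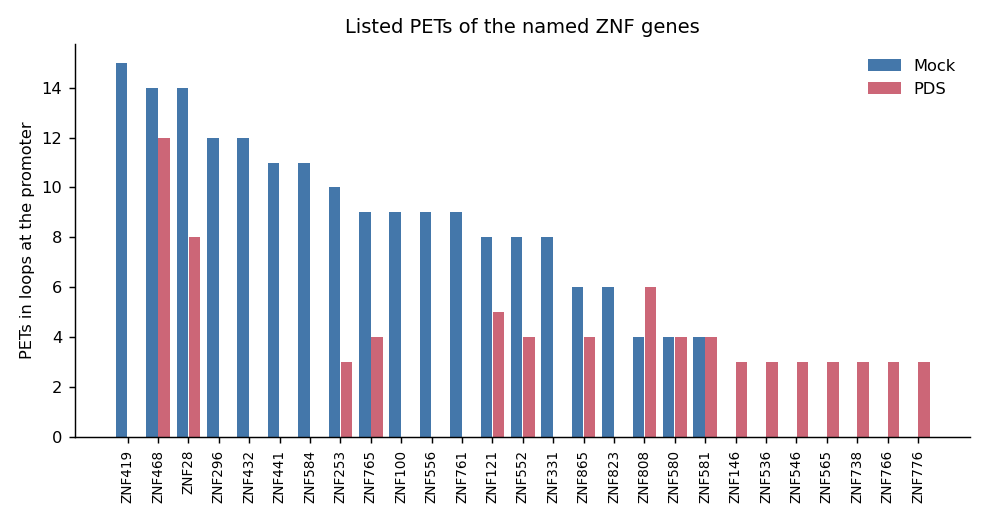
PETs summed over the loops at each named gene's promoter in the mock list (blue) and the PDS list (red), ordered by the mock value; there is 1 list per condition and so no error bar. ZNF419 has 15 PETs and no PDS bar, ZNF468 has 14 and 12, and the last 7 genes have 3 PETs in the PDS list only.

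There were 14 loops in the PDS list alone, 12 of them with 3 PETs and 2 with 4. The 7 genes whose only loops were of this kind were ZNF146, ZNF536, ZNF546, ZNF565, ZNF738, ZNF766 and ZNF776, each with 1 loop of 3 PETs, while their mock value can be up to 2 PETs. ZNF146, which consists of zinc fingers without a KRAB domain, and ZNF565 share 1 anchor and so 1 loop. ZNF536, a regulator of neuronal differentiation, looped to sequence 8.47 kb away. The anchor of ZNF546 also holds a start site of the proteasome gene PSMC4, and its partner, within FCGBP, has 45.9% repeated 100-base sequences. ZNF766 was joined over 260.5 kb to ZNF808, a silencer of MER11 elements that is needed for pancreas development. ZNF808 had 1 mock loop of 4 PETs and 2 PDS loops of 3 PETs, with different partners.

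To see the promoters at the loops described, the 250 bases before the RefSeq start site (GRCh38.p14) are given for 4 members with a start site inside a loop anchor, 2 with a loop in both lists and 2 with strong mock loops only. They are written 5′ to 3′ on the strand of the gene, and capitals mark the runs of G or C of predicted G4 motifs.
ZNF468 chr19:52857620-52857869 (minus strand): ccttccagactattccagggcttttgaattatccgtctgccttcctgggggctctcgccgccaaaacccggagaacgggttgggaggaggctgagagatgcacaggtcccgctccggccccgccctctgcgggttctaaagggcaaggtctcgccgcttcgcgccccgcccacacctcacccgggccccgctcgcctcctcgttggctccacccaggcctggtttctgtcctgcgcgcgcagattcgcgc
ZNF865 chr19:55605397-55605646 (plus strand): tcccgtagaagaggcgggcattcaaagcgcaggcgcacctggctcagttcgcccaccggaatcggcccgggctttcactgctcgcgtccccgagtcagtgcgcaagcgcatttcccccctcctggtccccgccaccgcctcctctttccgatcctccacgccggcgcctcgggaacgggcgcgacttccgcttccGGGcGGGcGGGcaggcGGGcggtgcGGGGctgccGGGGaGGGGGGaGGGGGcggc
ZNF296 chr19:45076479-45076728 (minus strand): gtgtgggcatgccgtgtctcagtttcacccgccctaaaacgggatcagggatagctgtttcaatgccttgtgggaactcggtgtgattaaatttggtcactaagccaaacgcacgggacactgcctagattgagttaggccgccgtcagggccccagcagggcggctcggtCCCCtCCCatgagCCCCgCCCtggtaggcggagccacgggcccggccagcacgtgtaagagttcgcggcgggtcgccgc
ZNF419 chr19:57487500-57487749 (plus strand): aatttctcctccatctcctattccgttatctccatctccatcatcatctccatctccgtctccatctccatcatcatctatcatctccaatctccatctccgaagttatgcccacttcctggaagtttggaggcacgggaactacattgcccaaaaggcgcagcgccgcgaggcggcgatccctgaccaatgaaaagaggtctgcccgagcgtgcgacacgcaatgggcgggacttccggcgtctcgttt
ZNF865, whose loop was in both lists, has 2 motifs on the strand shown next to the start site, and ZNF296, whose loops were not in the PDS list, has 1 on the opposite strand. ZNF468 and ZNF419 have none in this window, with a loop in both lists and with mock loops only, respectively. RefSeq promoters of 300 bases, from 250 before to 50 after the start, were found for 218 of the 249 genes. A motif was present in 18.1% of their 270 promoters (interval 14.01 to 23.2), in 38.6% of those of other chromosome 19 genes and in 25% of all listed promoters.

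The partners of ZNF loops were mostly not promoters. In mock-treated cells 77 of 109 loops (70.6%, interval 61.5 to 78.4) had no start site of a coding gene at the other anchor, against 56.7% of the loops at other chromosome 19 promoters (interval 53.8 to 59.5). Of these 77 partner anchors, 29 overlapped the body of the same ZNF gene, a further 15 that of another ZNF gene, 13 that of another coding gene, and 20 lay outside coding genes. An overlap of any length was counted. A promoter of a different coding gene was the partner in 29 loops (26.6%, interval 19.2 to 35.6), and 33.3% at the other genes (interval 30.6 to 36.1). In PDS-treated cells 17 of 23 loops had no promoter at the partner. Both anchors lay in the same cluster in 94 of 109 mock loops and 18 of 23 PDS loops, and 0 in either list joined different clusters. By definition, ZNF genes of different clusters start more than 250 kb apart, and only 16 of the 109 mock loops spanned more than 100 kb. Few loops could thus have reached another cluster, so whether loops were confined to clusters cannot be read from these counts.

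A different ZNF promoter was the partner in 17 mock loops (15.6%, interval 9.97 to 23.6) and 4 PDS loops. Of the 17, 11 joined direct neighbours among the ZNF genes and 6 had 1 to 3 ZNF genes between the joined ones, all with 3 PETs and over 31.2 to 163 kb. The 221 neighbouring pairs within clusters comprised 131 on the same strand, 44 divergent and 46 convergent pairs. A mock loop joined 7 of the same-strand pairs, 4 of the divergent pairs, among them ZNF823 with ZNF441 and ZNF625 with ZNF136, and 0 of the convergent pairs, which allows a share of up to 7.71% by the Wilson interval. In PDS-treated cells 3 neighbouring pairs were joined, namely ZNF28 with ZNF468, ZNF160 with ZNF415 and ZNF580 with ZNF581, and the fourth PDS loop between ZNF promoters was that of ZNF766 with ZNF808. Both anchors of the ZNF580 and ZNF581 loop hold start sites of both genes, and ZNF28 has start sites in both anchors of its loop. Like those of ZNF28 with ZNF468, the anchors of ZNF160 with ZNF415 share 100-base sequences (0.791% of the first and 4.76% of the second). So do those of the mock loop of ZNF799 with ZNF443 (6.30% and 6.59%). The part of misplaced reads in these loops was not tested.

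As PDS binds G4 structures, the loops were compared by predicted motifs. A motif lay within 1 kb of a start site in 165 of 249 ZNF genes (66.3%, interval 60.2 to 71.9), against 87.9% of the other chromosome 19 genes and 76.7% of all genes. Mock loops were present at 39.4% of ZNF genes with a motif (interval 32.3 to 47.0) and at 36.9% of those without (interval 27.4 to 47.6). At the other genes of the chromosome the shares were 67.9% with a motif (interval 65.1 to 70.7) and 34.5% without (interval 27.3 to 42.4). The intervals with and without a motif were apart at the other genes and overlapped at the ZNF genes, and whether the sets differ in this was not tested. Among genes without a motif, the intervals of both sets overlapped.

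**Figure D5:**
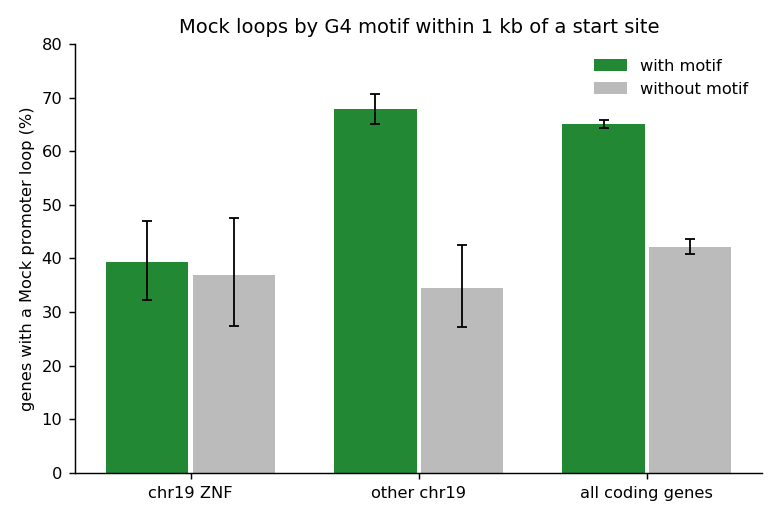
Percentage of genes with a promoter loop in mock-treated cells, split by whether a predicted G4 motif lies within 1 kb of a start site (green, with; grey, without); error bars are 95% Wilson intervals. For chromosome 19 ZNF genes the bars stand at 39.4% and 36.9%, and for other chromosome 19 genes at 67.9% and 34.5%.

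The fall after PDS treatment could not be separated by motif. The PDS/mock ratio of loops was 0.234 at ZNF genes with a motif (interval 0.141 to 0.388) and 0.194 at those without (interval 0.0883 to 0.428). When the anchors themselves were searched, 85 of 109 mock loops and 21 of 23 PDS loops had a motif in at least 1 anchor. Anchors are kilobases wide, and the share among loops of other genes is not given here, so these counts have no background to be read against. The ratio was 0.247 for loops with one (interval 0.154 to 0.397) and 0.0833 for those without (interval 0.0218 to 0.318), of which the latter rests on 2 PDS loops. All of these are motifs in the reference sequence, and whether they fold in HepG2 cells was not measured here.

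Some of the motifs were near copies of each other. A group of 13 motifs of 25 bases that differ from a neighbour in the group by at most 2 bases was found after the data had been seen, among 374 motifs near start sites of ZNF genes. All 13 lie in the cluster from ZNF737 to ZNF254, on the strand of the gene and 297 to 453 bases after the nearest start site, in 13 different genes. The following 6 show how closely they agree, with the runs of G in capitals, read from GRCh38 on the strand of the motif.
ZNF100 chr19:21767123-21767147 (minus strand): GGGaccacGGGaGGGtcgtcaGGGG
ZNF681 chr19:23758458-23758482 (minus strand): GGGaccacGGGaGGGtcgtcaGGGG
ZNF85 chr19:20923686-20923710 (plus strand): GGGaccacGGGaGGGttgtcaGGGG
ZNF738 chr19:21359433-21359457 (plus strand): GGGaccgtGGGaGGGtcgtcaGGGG
ZNF91 chr19:23395013-23395037 (minus strand): GGGatcacGGGaGGGtcgtcaGGGG
ZNF254 chr19:24087610-24087634 (plus strand): GGGacccGGGGaGGGtcgtcaGGGG
The motifs of ZNF100 and ZNF681 are identical, and ZNF738 and ZNF254 differ from them by 2 bases each. Mock loops were present at 2 of the 13 genes, ZNF85 with 4 PETs and ZNF100 with 9, and a PDS loop at ZNF738 alone, beside 3 of all 29 genes of this cluster and 38.6% of ZNF genes with a mock loop. Only the motifs of ZNF100 and ZNF738 lie in an anchor of these loops, and that of ZNF85 does not. A second group of 10 motifs of 18 bases, 9 of them on the strand opposite to the gene, was found in 9 genes, and 3 of its members are given in the same way.
ZNF808 chr19:52535869-52535886 (minus strand): GGGcGGGGccGGGGcGGG
ZNF701 chr19:52570144-52570161 (minus strand): GGGcGGGGccGGGGcGGG
ZNF611 chr19:52735167-52735184 (plus strand): GGGcaGGGccGGGGcGGG
The 3 shown lie in the cluster from ZNF175 to ZNF331, and so do the others except that of ZNF135, which is in the cluster from ZNF264 to ZNF446. Of the 9 genes, 4 had a mock loop, beside 45% of the genes from ZNF175 to ZNF331, and 1, ZNF808, had a PDS loop. Of the 10 motifs 3 lie in a loop anchor, at ZNF83, ZNF611 and ZNF600, and that of ZNF808 does not.

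Genes of the pathway through which KRAB zinc finger proteins act were looped at about the share of all genes. Of 20 such genes, 14 had a mock loop and 7 a PDS loop, beside 59.8% and 28.7% of all genes, and 5 had none in either list. TRIM28, the corepressor that KRAB domains recruit and itself on chromosome 19, had 1 loop of 4 PETs in mock-treated cells and none in PDS-treated cells. The DNA methyltransferase genes DNMT1 and DNMT3A each had 5 loops, with 20 and 22 PETs, and 1 loop of 3 PETs after PDS treatment. MORC2, an ATPase that acts with the HUSH complex, had 3 loops in both conditions, with 13 and 12 PETs, and the HUSH subunit gene TASOR had none in mock-treated cells and 1 of 5 PETs in PDS-treated cells. SETDB1, the histone methyltransferase of the pathway, had no listed loop.

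The label of the cells was checked by loops at marker genes. Of 20 hepatocyte genes 17 had a mock loop, beside 59.8% of all protein-coding genes, with a median of 14.5 PETs and 64 at ALB, which encodes albumin. Of 12 marker genes of other cell types 6 had a mock loop, which is near the share of all genes, with a median of 4.5 PETs. The highest were the endothelial genes PECAM1 with 26 PETs and CDH5 with 23, and the neuronal gene RBFOX3 with 20. A PDS loop was present at 14 of the 20 and 5 of the 12, beside 28.7% of all genes. The lists of loops do not measure expression. The 6 marker genes of other cell types without a mock loop, including PTPRC of leukocytes and HBB of erythroid cells, had none in either list.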

How the data were processed

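POLR2A HiChIP-seq of HepG2 cells comprised 2 replicates each of mock- and PDS-treated cells. The authors deposited 1 list of loops per condition, combined over replicates, in which each loop has a raw whole-number count of PETs. Per the submitters' processing notes HiC-Pro 3.1.0 was used on GRCh38, and the tool that set the anchors is not given in the sources used here. The lists hold 66417 and 18778 loops with 254647 and 67001 PETs, sums that cover listed loops and are not library depths.

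Loops were matched to start sites of GENCODE 44 protein-coding genes (window 1 kb), and loops of both lists by identical anchors. Shares have Wilson intervals, PDS/mock ratios the odds of the Wilson bounds of PDS out of the sum, and medians binomial-rank intervals, at 95%. Distances are between anchor midpoints. Repeated sequence was measured as 100-base sequences with a second copy in the reference genome. The matching, the motif search and the ratio interval were tested on simulated data. Members, gene lists and comparisons were chosen with earlier results of these data known. By rule, the genes named were the 12 with most PETs in the mock list, the 6 with most in the PDS list (ties by number of loops, then symbol), those at the 5 loops with most PETs in either list, those with a PDS loop only and those with at least 5 PETs in both. Further genes were named after their values were seen. Motif groups and pairs of neighbours were examined after the data had been seen. Alternatives covered the PET minimum, the window, start sites, distance, shared anchors, gene symbols, loop matching, scaling and the motif definition. Python 3.11.15, numpy 2.4.6 and the packages scipy, pandas, pysam and matplotlib were used.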

Additional observations from a re-analysis of the deposited data

How the results depend on the processing

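No paired analysis was possible because the replicates were combined in each list, and leaving out single replicates was not run for the same reason. Of 70 alternative values, 55 stayed within the counting interval of the reported value. With at least 4 PETs, the ratio of PETs was 0.150, and 18.9% of ZNF genes had a mock loop and 3.21% a PDS loop. With at least 5 PETs, the ratio of loops was 0.111 and that of PETs 0.120, 8.03% and 1.20% of ZNF genes had a mock and a PDS loop, and the median distance was 12972 bp. With the start of the gene record alone 32.5% of genes had a mock loop, and 28.5% when loops that touch a promoter of another gene were left out. PETs divided by the list total gave a ratio of 0.753 (interval 0.593 to 0.955). A motif was found near 87.6% of genes with spacers up to 12 bases, 100% with runs of 2 G, 57.4% at the gene record's start alone and 17.7% from 250 bases before to 50 after it. The share of looped ZNF genes in mock-treated cells was below that of other chromosome 19 genes in all 9 alternatives, with separate intervals in each, and in PDS-treated cells it was below in all 9, with separate intervals in 6. The PDS/mock ratio of PETs at ZNF promoters was above that of the other genes in all 10, with separate intervals in 2 (at least 4 PETs, and promoters of ZNF genes alone). The ratio of loops was above in all 9, with overlapping intervals in each. The share of loops found in both lists was higher at ZNF promoters, except with anchors extended by 5 kb (12.8% against 18.7%). The intervals of this share overlapped in all 11 alternatives. Leaving out loops whose anchors share a 100-base sequence, an alternative chosen after seeing the data, changed no value beyond its counting interval. Most loops have 3 PETs, so single loops are known with little precision.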
